A study of Mus musculus with 12 samples.

Results

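The genes described here are 40 genes that mark the endothelium, the cell layer that lines blood vessels and the chambers of the heart, measured in RNA from cardiomyocytes isolated from newborn mouse hearts. They were taken from a fixed list of symbols spanning all endothelium, capillaries, the endocardium, arteries, veins and lymphatics. All 40 were found by gene identifier among the 52336 genes of the deposited table. All 40 also had a mean value of at least 10 and so were among the 14996 genes tested. The 12 libraries came from wild type pups in 4 groups of 3. Pups received daily injections from postnatal day 0 to day 1 of either a high dose of N-acetylcysteine (NAC), a precursor of cysteine and glutathione with antioxidant activity, in a HEPES-buffered saline (25 mM HEPES, 140 mM NaCl), or saline as the control. On day 2 they had either myocardial infarction (MI), made by closing the left anterior descending coronary artery, or a sham operation, and hearts were collected on day 3. The groups are named by injection and surgery: saline sham, saline MI, NAC sham and NAC MI. Ventricles (whole in the series text, left in the sample labels) were pooled, digested with enzymes and passed through a selection kit for neonatal cardiomyocytes before extraction of RNA and sequencing of polyadenylated transcripts. The labels do not say how many hearts made up a pool or whether pools were separate litters. The p-values therefore describe only how much the libraries vary, which may be technical in part. The comparisons address how NAC treatment relates to the transcriptome without and with injury.

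Endothelial cells make up a large share of the non-muscle cells of the heart and are held together by VE-cadherin and claudin-5. They read vascular endothelial growth factor (VEGF) through KDR and FLT1, and their identity depends on ETS and SOXF transcription factors. Notch signalling through DLL4 and NOTCH1 sets tip, stalk and arterial fates, NR2F2 sets venous fate and PROX1 lymphatic fate. A cardiomyocyte isolate holds RNA of endothelial cells as far as these cells pass the selection. Not every member is confined to them, since cardiomyocytes also express Prox1. In such bulk RNA, fewer endothelial cells and less RNA per cell cannot be told apart.

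The promoters of 2 members are shown because Tie1 had the highest correlation with the endothelial reference over all 12 libraries (though not over the 10 without NAC sham 2 and NAC MI 2) and Apln had the most negative mean difference between MI and sham. Each runs 5′ to 3′ along the gene from 250 bases before to 50 bases after the RefSeq start on GRCm38.p6. Tie1 lies at chr4:118489800-118490099 on the minus strand and Apln at chrX:48034804-48035103 on the minus strand. Capitals mark AGGAAG or CGGAAG, cores of the kind that ETS factors bind, on either strand, where CTTCCT and CTTCCG are the same letters read on the opposite strand.
Tie1: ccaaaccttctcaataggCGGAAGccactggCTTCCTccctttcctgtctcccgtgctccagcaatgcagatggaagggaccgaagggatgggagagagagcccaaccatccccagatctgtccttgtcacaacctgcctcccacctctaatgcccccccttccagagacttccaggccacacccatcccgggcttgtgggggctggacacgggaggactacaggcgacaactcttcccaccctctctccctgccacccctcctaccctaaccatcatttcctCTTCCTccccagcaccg
Apln: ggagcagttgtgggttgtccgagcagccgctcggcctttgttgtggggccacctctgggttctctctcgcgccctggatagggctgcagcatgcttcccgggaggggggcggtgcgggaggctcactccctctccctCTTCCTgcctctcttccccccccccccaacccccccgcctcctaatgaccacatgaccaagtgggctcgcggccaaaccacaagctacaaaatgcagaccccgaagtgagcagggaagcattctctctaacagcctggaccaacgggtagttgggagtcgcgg
RefSeq windows were found for 23 of the 40 members. Of these, 11 (47.8%) held AGGAAG or CGGAAG, against 46.4% of all 27025 windows of 300 bases. The Tie1 window held 3 matches and the Apln window held 1. The share among members is close to that of all promoters, and a match describes letters in this window only.

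Libraries held 14353842 to 25118341 reads in genes, and every member had reads in every library, from 5 reads for Ackr1 in its lowest library upward. A total of 3 libraries were singled out within their groups. NAC sham 2 had the lowest summed value of 15 cardiomyocyte markers (264907, against 693250 and 686698 in the other NAC sham libraries). Its summed value of 15 macrophage and monocyte markers was 22622, against 853 to 1811 in the other 5 sham libraries. NAC MI 2 had a macrophage sum of 1133, against 9816 to 14485 in the other 5 MI libraries, and the highest cardiomyocyte sum of all (739464). Saline sham 3 had the lowest weight in its group when libraries were weighted by quality (0.27, against 1.83 and 0.56). NAC MI 3 had a weight of 0.49, near the 0.45 of NAC MI 2, and was not singled out. Median differences and counts of calls are therefore also given without these 3 libraries. The titles of 10 libraries carry prefixes whose meaning is not stated. None of them spans the surgeries: prefix and surgery cannot be told apart.

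The isolates carried abundant endothelial RNA beside the cardiomyocyte RNA. Per kb of exon, the normalized value of Fabp4, a fatty acid carrier of capillary endothelium, was 4725 ± 993 (SD, n = 3) in saline sham. Cdh5, which encodes VE-cadherin of the endothelial junction, reached 4495 ± 170.3. Eng (endoglin, a co-receptor for TGF-beta ligands), Cldn5 (claudin-5 of the tight junction) and Pecam1 (the adhesion molecule CD31) followed at 2858 ± 422, 2674 ± 1100.3 and 2151 ± 443. On the same scale the cardiomyocyte genes Actc1, Myh6 and Tnnt2 were at 89594 ± 9845, 15200 ± 7531 and 6819 ± 2614, and the fibroblast collagen gene Col1a1 was at 3416 ± 717. Of the 40 members, 24 lay above the 90th percentile of 13452 protein-coding genes tested, and 38 lay above the 50th. The lowest were the venular chemokine receptor Ackr1 (8.64 ± 4.36, percentile 11.9), the venous factor Nr2f2 (56.5 ± 3.41) and the lymphatic factor Prox1 (85.4 ± 21.5). Fabp4 and Cdh5 differed by less than the SD of Fabp4, and Eng, Cldn5 and Pecam1 by less than the SD of Cldn5, so the order within each of these is not resolved. The exon length takes in every annotated exon, and for Fabp4 it covers the whole gene at 4489 bases. A shorter transcript would give a higher level per kb, so the place of Fabp4 beside the other genes depends on this length.

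**Figure D1:**
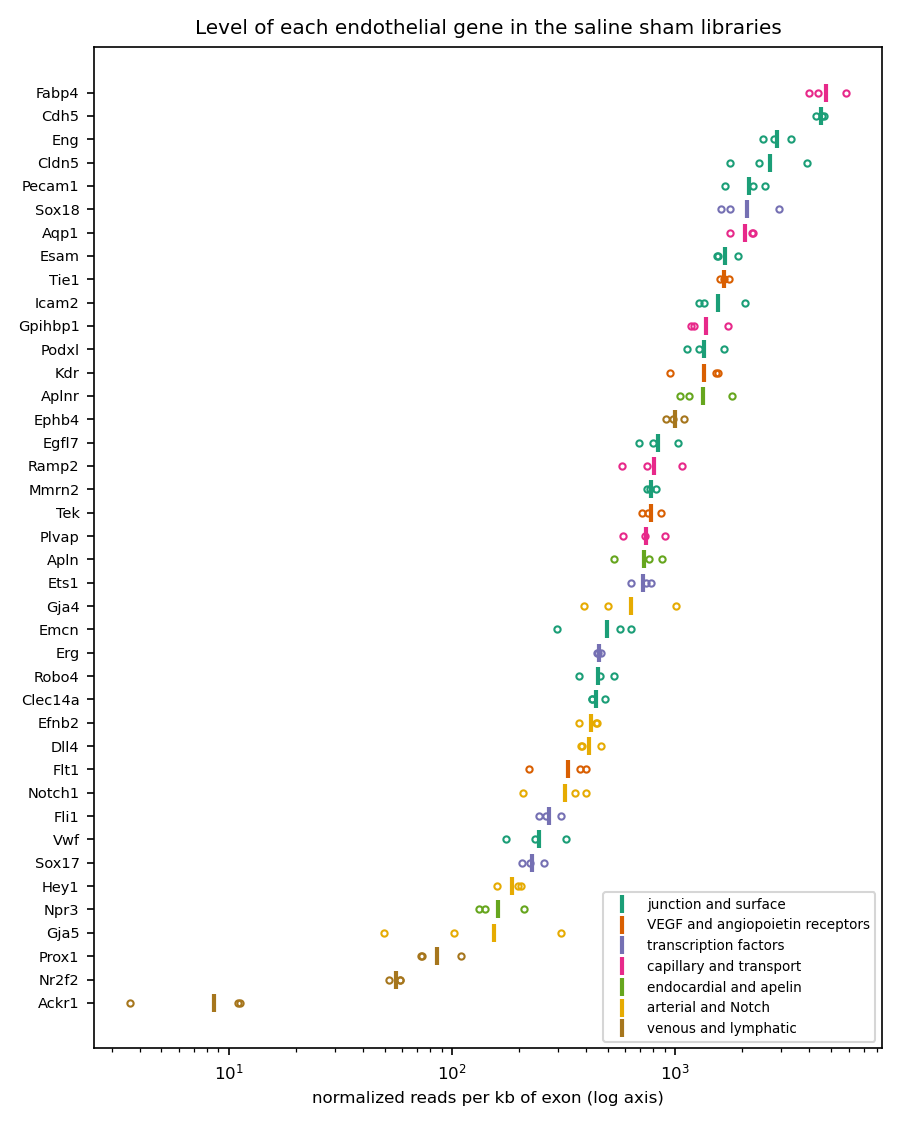
Level of each of the 40 genes in saline sham, as normalized reads per kb of exon on a log axis. Circles are the 3 libraries, vertical bars their mean and colours the role. Fabp4 and Cdh5 lie highest and Ackr1 lowest, and the circles of Gja5 spread widely.

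The summed value of the 40 genes was highest in the sham libraries of saline pups and in 1 library of NAC sham. It was 171787, 189517 and 184948 in saline sham, 124336, 132058 and 117045 in saline MI, 124874, 207218 and 104022 in NAC sham and 110354, 67098 and 137512 in NAC MI. The 3 saline MI libraries all lay below the 3 saline sham libraries, whereas NAC sham and NAC MI overlapped. A mean log2 score over 12 pan-endothelial reference genes (Pecam1, Cdh5, Cldn5, Esam, Icam2, Emcn, Clec14a, Mmrn2, Egfl7, Robo4, Tie1 and Erg) was 11.88, 11.94 and 12.10 in saline sham, 11.49, 11.54 and 11.27 in saline MI, 11.37, 12.09 and 11.04 in NAC sham and 11.16, 10.31 and 11.38 in NAC MI. NAC sham 2 stood with the saline sham libraries on this score, and NAC MI 2 was the lowest of all libraries.

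**Figure D2:**
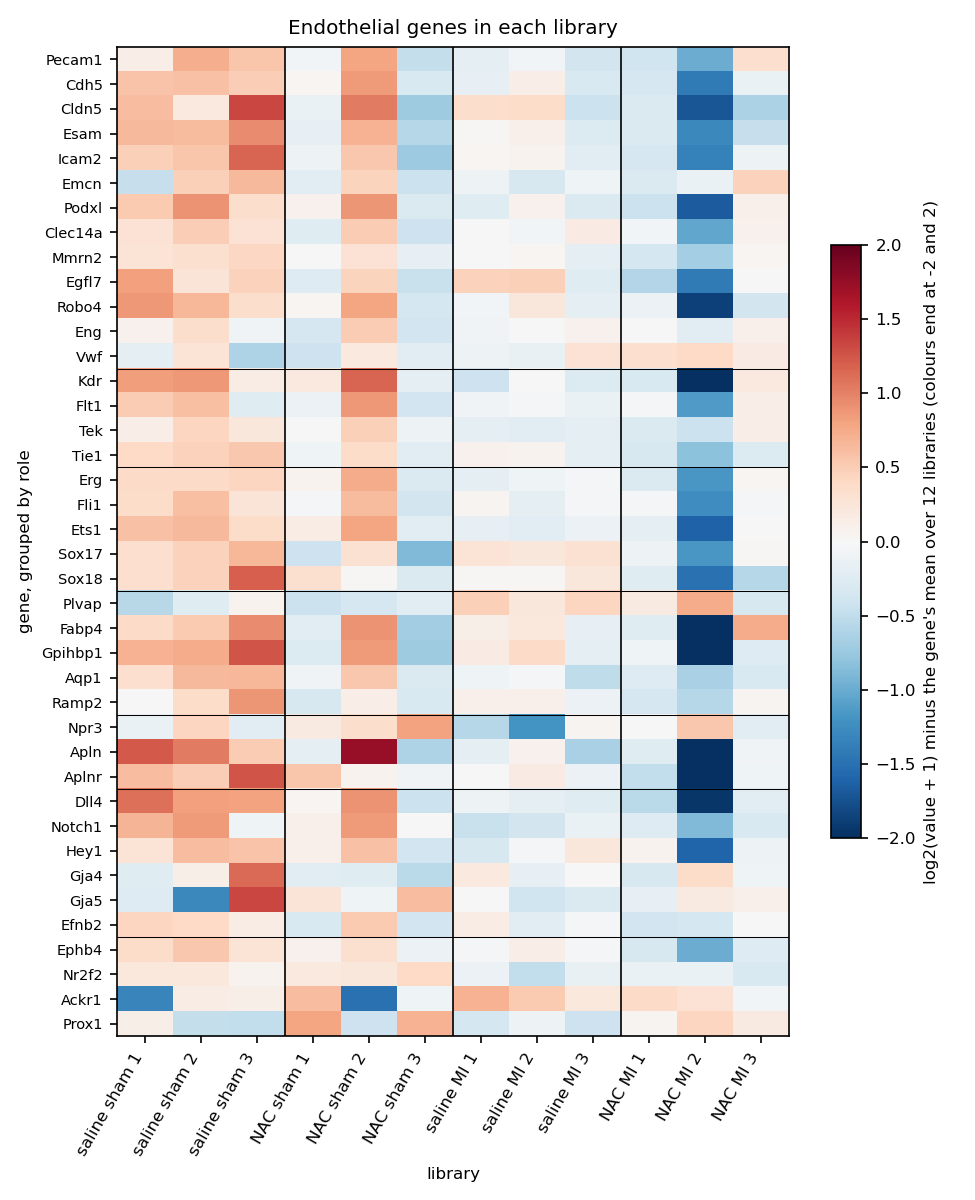
The 40 genes (rows, grouped by role) in 12 libraries (columns), as log2(value + 1) minus the gene's own mean over the libraries, with colours ending at -2 and 2. Saline sham libraries and NAC sham 2 are mostly red, NAC MI 2 mostly blue, and Vwf, Plvap, Npr3, Gja4, Gja5, Nr2f2, Ackr1 and Prox1 do not follow that pattern.

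Among genes of the junction and surface, 12 of 13 had lower means after MI than after sham in saline pups, with a median log2 difference of -0.62. Cdh5 had values, in library order 1 to 3, of 19115, 19469.6 and 18091 in saline sham, 11535, 14119 and 10445 in saline MI, 13245, 23331 and 10495 in NAC sham and 10187, 4838 and 11750.5 in NAC MI. Each saline MI library was below each saline sham library, while the NAC groups overlapped. The log2 difference, MI minus sham on log2(value + 1), was -0.66 after saline (SE 0.35) and -0.83 after NAC (SE 0.35). Cldn5 had 3359, 2487 and 5513 in saline sham, 2778, 2816 and 1617 in saline MI, 1979, 4468 and 1331 in NAC sham and 1788, 666 and 1407 in NAC MI. Its saline sham libraries spread from 2487 to 5513, and the saline groups overlapped. Esam, an adhesion molecule of the junction, had 4483, 4408 and 5472 in saline sham, 2898, 3057 and 2360.3 in saline MI, 2558, 4609 and 1927 in NAC sham and 2322, 1165 and 2083 in NAC MI. In saline pups its MI libraries lay below its sham libraries, and NAC MI lay below saline MI, with differences of -0.79 (SE 0.31) and -0.63 (SE 0.31). Pecam1, Icam2, Podxl, Clec14a, Mmrn2 and Robo4 also had all saline MI libraries below all saline sham libraries. Their mean differences ran from -0.33 for Clec14a, a C-type lectin of the vessel wall, to -0.77 for Icam2, an intercellular adhesion molecule. Egfl7, a secreted factor of the vessel matrix, and Emcn, the sialomucin endomucin, overlapped between saline MI and saline sham, with differences of -0.28 and -0.40. Eng had means within the spread of the libraries, at 11567 ± 1707 in saline sham, 10605 ± 588 in saline MI, 10476 ± 3907 in NAC sham and 10296 ± 1141 in NAC MI (SD, n = 3). Vwf, which encodes the clotting factor von Willebrand factor stored in endothelial granules, went the other way, with 3804, 5207 and 2798 in saline sham, 3979, 3870.1 and 5262 in saline MI, 3228, 4919 and 3701 in NAC sham and 5392, 5640.0 and 4793 in NAC MI. NAC MI lay above NAC sham except that NAC MI 3 was below NAC sham 2, and the difference averaged over treatments was 0.31 (SE 0.17).

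The 4 receptors for VEGF and angiopoietins had lower means after MI in both treatments. Kdr, the main signalling receptor for VEGF, had 13814, 14127 and 8556 in saline sham, 5761, 7650.2 and 6390.0 in saline MI, 8857, 17198 and 6796 in NAC sham and 6264, 1648 and 8845 in NAC MI. Saline MI lay below saline sham without overlap, and NAC MI 2 was far below the other NAC MI libraries. Its log2 difference averaged over treatments was -1.01 (SE 0.36). Flt1, a VEGF receptor that mostly acts as a decoy, differed by -0.41 (SE 0.26), and its saline groups overlapped. Tek, the angiopoietin receptor TIE2, had 3338, 4088 and 3564 in saline sham, 2658, 2621 and 2681 in saline MI, 3001, 4223 and 2836 in NAC sham and 2469, 2247 and 3341 in NAC MI. Saline MI was tight, at 2653 ± 30.5, and below all saline sham libraries. Tie1, the partner of TIE2, had 7816, 8125 and 8628 in saline sham, 6323, 6219.6 and 5212 in saline MI, 5568, 7681 and 5079 in NAC sham and 4764, 3349 and 4892 in NAC MI. It was the only member whose groups did not overlap in any of the 4 comparisons of 3 against 3 libraries, with the MI group or the NAC group lower each time. Its differences were -0.47, -0.49, -0.44 and -0.46 for MI after saline, MI after NAC, NAC after sham and NAC after MI. Of all genes, 8.15%, 9.96%, 4.5% and 11.5% lay apart and lower in these comparisons, in that order. The share that did so in all 4 is not given here, so the Tie1 pattern is a description.

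All 5 transcription factors had lower means with MI and with NAC. The ETS factors Erg, Fli1 and Ets1, which hold up endothelial gene programmes, had log2 differences of -0.58, -0.49 and -0.77 for MI averaged over treatments, and of -0.30, -0.35 and -0.36 for NAC averaged over surgeries. The SOXF factors act in vascular development and arterial specification. Sox17 had 981, 1066 and 1234 in saline sham, 937, 911 and 955 in saline MI, 584, 962 and 420.5 in NAC sham and 721, 345 and 787 in NAC MI. NAC lay below saline in both surgeries without overlap, and the difference averaged over surgeries was -0.75 (SE 0.23), against -0.16 (SE 0.23) for MI. Sox18 had 2609.5, 2845 and 4715 in saline sham, 2091, 2089.5 and 2422 in saline MI, 2574, 2104 and 1684 in NAC sham and 1747, 731 and 1398 in NAC MI. It was also lower with NAC in both surgeries without overlap, with a difference of -0.75 (SE 0.22). Whether the SOXF and ETS genes differ from each other in this respect was not tested.

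Among capillary and transport genes Plvap was alone in having a higher mean after MI. Plvap, which builds the diaphragms of endothelial pores and caveolae, had 1163, 1459 and 1795 in saline sham, 2384, 2003 and 2306 in saline MI, 1272, 1359 and 1467 in NAC sham and 1951, 2875 and 1383 in NAC MI. All 3 saline MI libraries exceeded all 3 saline sham libraries, and after NAC the groups overlapped through NAC MI 3. The difference was 0.62 (SE 0.24) after saline and 0.54 (SE 0.24) after NAC. Aqp1, the water channel of continuous capillaries, had 4650.0, 5791 and 5847 in saline sham, 3470.5, 3644 and 2595 in saline MI, 3511, 5343 and 3029.8 in NAC sham and 3082, 2352 and 2973 in NAC MI. Saline MI lay below saline sham without overlap, with a difference of -0.75 (SE 0.23), the smallest p among members in that comparison. Gpihbp1, which carries lipoprotein lipase across capillary endothelium, had 2998, 3098 and 4417 in saline sham, 2067, 2409 and 1628 in saline MI, 1519, 3342 and 1127 in NAC sham and 1741, 301 and 1543 in NAC MI. NAC MI 2 was far below all other libraries, and the difference between NAC and saline averaged over surgeries was -1.03 (SE 0.39), the most negative of the 40. Fabp4 had 17797, 19585 and 26254 in saline sham, 14816, 15807 and 12198 in saline MI, 11692, 25357 and 8401 in NAC sham and 11564, 2440.4 and 22944 in NAC MI. NAC MI alone held both a library near the saline sham level and the lowest library of all. Ramp2, a subunit of the adrenomedullin receptor, differed by -0.25 with MI and -0.45 with NAC.

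The apelin genes had large negative differences. Apln, the ligand apelin made by sprouting endothelium, had 2759.5, 2412 and 1685 in saline sham, 1044, 1253 and 755 in saline MI, 1030.4, 3945 and 771 in NAC sham and 992, 186 and 1121 in NAC MI. Saline MI lay below saline sham, whereas the NAC sham libraries alone ranged from 771 to 3945. The difference averaged over treatments was -1.24 (SE 0.46). Aplnr, its receptor, had 4294, 3904 and 6632 in saline sham, 2765, 3132 and 2567 in saline MI, 4099, 2934 and 2639 in NAC sham and 1986, 531 and 2624 in NAC MI. MI lay below sham without overlap in both treatments, narrowly after NAC (2624 against 2639), with differences of -0.77 (SE 0.45) and -1.17 (SE 0.45). NAC MI 2 was far below the other NAC MI libraries. Npr3, the natriuretic peptide clearance receptor that marks endocardium, had 1321, 1972 and 1248 in saline sham, 977, 634 and 1505 in saline MI, 1651, 1849 and 2536 in NAC sham and 1449.9, 2115 and 1261 in NAC MI. Its differences were -0.47 (SE 0.22) for MI and 0.55 (SE 0.22) for NAC, with overlapping groups.

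Arterial and Notch genes held the 2 members with the smallest p-values for MI averaged over treatments, Notch1 and Dll4. Dll4, the Notch ligand of tip cells and arteries, had 1803, 1480.5 and 1461 in saline sham, 777, 738 and 708 in saline MI, 856, 1569 and 623 in NAC sham and 573, 216 and 717 in NAC MI. Saline MI values were close together and all below saline sham. Notch1, its receptor, had 5068, 5671 and 2966 in saline sham, 2317, 2449.8 and 2893 in saline MI, 3372, 5725 and 3126 in NAC sham and 2650.2, 1705 and 2557 in NAC MI. All 6 MI libraries lay below all 6 sham libraries, and both treatments gave a difference of -0.79 (SE 0.29). Hey1, a transcription factor induced by Notch, differed by -0.59 (SE 0.27), and Efnb2, the arterial ephrin, by -0.28 (SE 0.16). The connexin genes Gja4 and Gja5 of arterial gap junctions differed by -0.0015 and -0.19. Gja5 had 588, 287 and 1779 in saline sham, 708, 532 and 578 in saline MI, 837, 665 and 1081 in NAC sham and 627, 796 and 754 in NAC MI, so the saline sham libraries spanned the values of all others. Gja5 shares 165 exonic bases with Gpr89 on the opposite strand, and the strand setting of the counting is not given in the sources used here.

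Venous and lymphatic genes were mixed, with 3 of 4 lower for MI and 2 of 4 lower for NAC. Nr2f2, the transcription factor of venous identity, had 505, 504 and 453 in saline sham, 399, 309.8 and 389.8 in saline MI, 498, 505 and 575 in NAC sham and 398, 398 and 351 in NAC MI. It was the other member whose 6 MI libraries all lay below all 6 sham libraries, with a difference of -0.44 (SE 0.12). With group means removed, Nr2f2 went opposite to the endothelial reference (Pearson r = -0.50 over 12 libraries). Which cells held it was not tested. Ephb4, the venous receptor for ephrin-B2, had 4529.6, 5092 and 4243 in saline sham, 3431, 3827 and 3455 in saline MI, 3724, 4398 and 3229 in NAC sham and 2818, 1768 and 2922 in NAC MI. MI lay below sham without overlap in both treatments, with differences of -0.37 and -0.62, and NAC MI lay below saline MI. Prox1, a factor of lymphatic endothelium that cardiomyocytes also express, had 925, 615 and 610.5 in saline sham, 672, 801 and 643 in saline MI, 1488, 645 and 1382 in NAC sham and 887, 1149 and 970.2 in NAC MI. It was higher in NAC MI than in saline MI without overlap, and NAC sham 1 and 3 exceeded all saline libraries. Ackr1 had 5.07, 15.9 and 15.5 in saline sham, 23.6, 20.8 and 16.6 in saline MI, 22.2, 4.38 and 13.4 in NAC sham and 18.8, 17.7 and 13.6 in NAC MI, and all 3 saline MI libraries exceeded all 3 saline sham libraries. It rests on 5 to 28 reads a library and shares 284 exonic bases on the same strand with Cadm3, whose mean value of 80.3 exceeds its own of 15.6, so its value is uncertain.

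**Figure D3:**
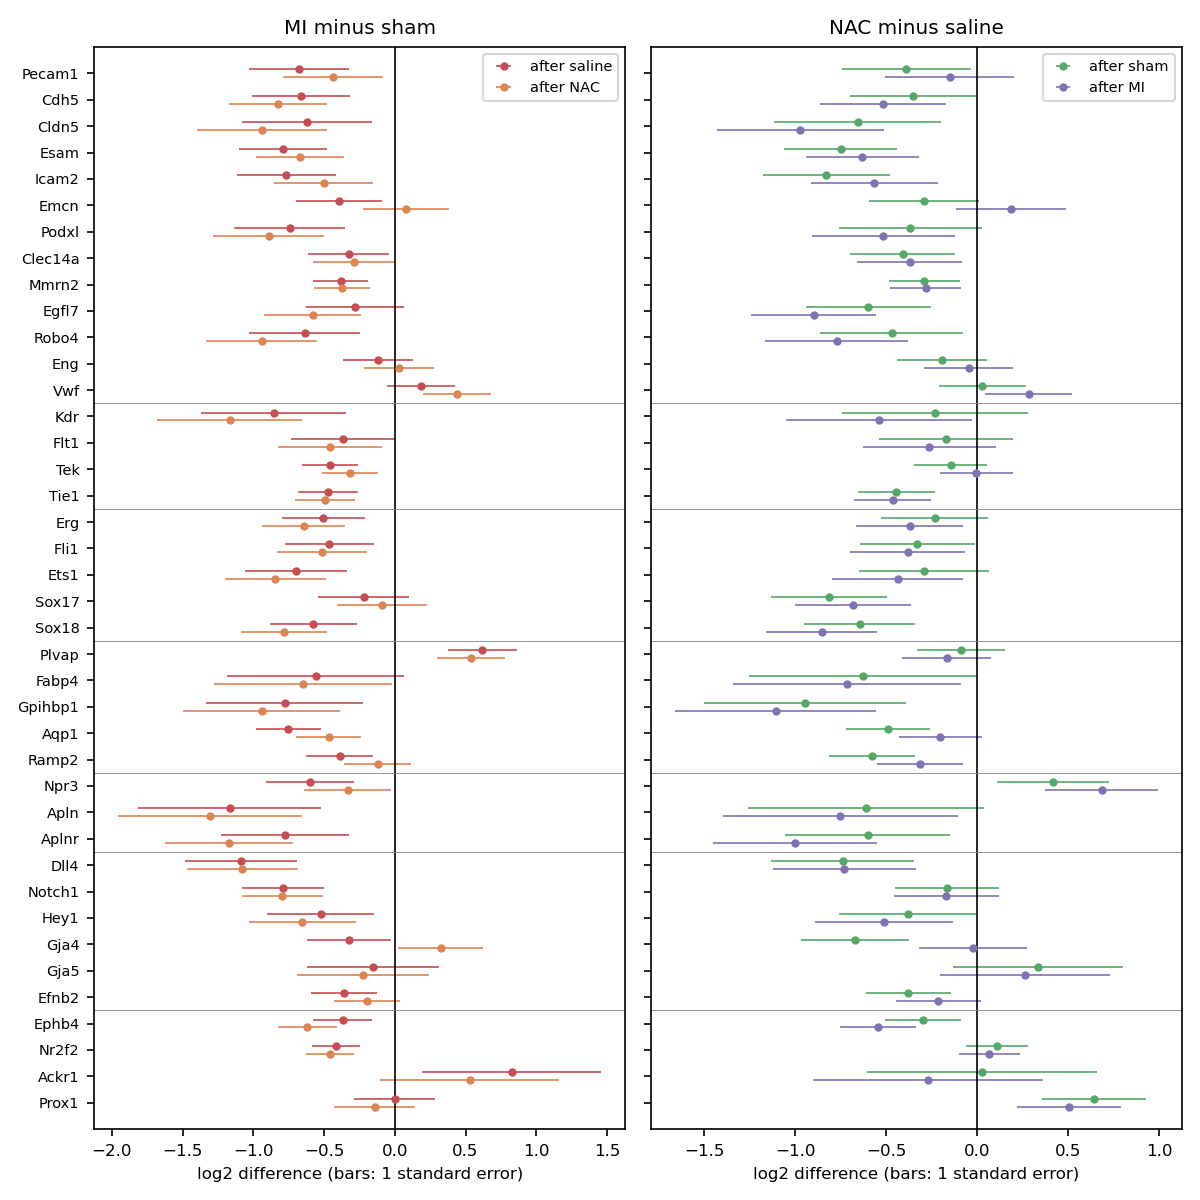
Log2 differences of the 40 genes on log2(value + 1), MI minus sham on the left and NAC minus saline on the right, with bars of 1 standard error. Most points lie left of 0 in both panels, and the bars of the 2 treatments or surgeries overlap for most genes.

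No member passed the test for MI against sham after saline (limma, adjusted p under 0.05), where 0.86% of all genes tested passed. The smallest adjusted p was 0.191 for Aqp1, followed by 0.294 for Dll4, and on the higher side 0.348 for Plvap and 0.67 for Ackr1. At an unadjusted p under 0.05 there were 9 members, against 11.4% of all genes. edgeR and DESeq2 also called 0 members, where they called 0.507% and 3.1% of all genes. The median log2 difference of the 40 was -0.49, with 37 lower, against a median of -0.01 and 50.9% lower over all genes tested. In 27 members all saline MI libraries lay below all saline sham libraries, where 8.15% of all genes did so. In 2 members, Plvap and Ackr1, they all lay above, where 10.4% of all genes did so.

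After NAC the median difference between MI and sham was much the same, at -0.50 with 34 of 40 lower. No member passed in limma, where 0.127% of all genes passed. edgeR and DESeq2 also called 0 members, where they called 0.18% and 1.61% of all genes. At an unadjusted p under 0.05 there were 14 members, against 1499 of all 14996 genes. The smallest adjusted p-values were 0.346 for Ephb4 and 0.384 for Notch1, and on the higher side 0.494 for Plvap and 0.55 for Vwf. In 5 members (Tie1, Aplnr, Notch1, Ephb4 and Nr2f2) all NAC MI libraries lay below all NAC sham libraries, where 9.96% of all genes did so, so that share is near the background. NAC sham ranged widely through NAC sham 2 and NAC MI through NAC MI 2. Without saline sham 3, NAC sham 2 and NAC MI 2 the median became -0.02 with 22 of 40 lower, and 8 members lay apart, where 26.9% of all genes did. No member passed in that fit either, where 3.83% of all genes passed.

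Averaged over treatments, the MI difference had a median of -0.49 with 37 of 40 lower, and of -0.21 with 30 of 40 lower without saline sham 3, NAC sham 2 and NAC MI 2. It gave 0 members in limma, where 2.74% of all genes passed. The nearest were Notch1 (adjusted p = 0.0576), Dll4 (0.0579), and on the higher side Plvap (0.0919) and Vwf (0.321). At an unadjusted p under 0.05 there were 25 members, against 20.2% of all genes. edgeR called 0. DESeq2 called 11, where it called 8.19% of all genes: Cdh5, Esam, Tie1, Ets1, Sox18, Aqp1, Dll4, Notch1, Ephb4 and Nr2f2 as lower and Plvap as higher. Notch1 and Nr2f2 were the members with all 6 MI libraries below all 6 sham libraries, where 0.76% of all genes were, and no member had all 6 above, where 1.45% of all genes had. Leaving out 1 library at a time gave 0 to 5 members in limma, the 5 without saline sham 3 being Plvap, Dll4, Notch1, Ephb4 and Nr2f2, in a fit where 10.4% of all genes passed.

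NAC pups had lower means of most members than saline pups in both surgeries. In sham pups the median difference was -0.37 with 34 of 40 lower, and in MI pups it was -0.38 with 34 of 40 lower. limma called 0 members in either comparison and 0% of all genes in both. edgeR and DESeq2 also called 0 members in each, where edgeR called 0% of all genes in both. DESeq2 called 0.341% of all genes after sham and 0.0736% after MI. At an unadjusted p under 0.05 there were 6 members in each, against 5.89% of all genes after sham and 9.22% after MI. The smallest p-values after sham belonged to Sox17 (adjusted p = 0.77) and Ramp2 (0.77), and on the higher side to Prox1 (0.77) and Npr3 (0.785). After MI they belonged to Sox18 (0.529) and Ephb4 (0.529), and on the higher side to Npr3 (0.536) and Prox1 (0.576). Groups lay apart with NAC lower in 3 members after sham (Tie1, Sox17 and Sox18), where 4.5% of all genes did so. After MI they did so in 5 members (Esam, Tie1, Sox17, Sox18 and Ephb4), where 11.5% did. Prox1 was the only member with NAC MI wholly above saline MI, where 8.84% of all genes were. Averaged over surgeries, the median was -0.38 with 35 lower. limma called 0 members and 0% of all genes, with 15 members at an unadjusted p under 0.05 (15.5% of all genes) and the smallest adjusted p-values at 0.198 for Sox18 and 0.203 for Sox17, then 0.247 for Prox1 and 0.273 for Npr3 on the higher side. edgeR called 0 members and 0% of all genes, and DESeq2 called only Sox18, where DESeq2 called 3.18% of all genes.

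The 2 NAC comparisons rested on different libraries. NAC sham 2 was higher than the other NAC sham libraries in 33 of 40 members, by a median of 0.82 on the log2 scale, and by 2.15 for Apln. Its cardiomyocyte sum was the lowest and its macrophage sum the highest of the sham libraries, as given above, and their part in the result was not tested. NAC MI 2 was lower than the other NAC MI libraries in 32 of 40 members, with a median of -0.9998, and differences of -2.74 for Fabp4, -2.50 for Apln, -2.44 for Gpihbp1 and -2.17 for Kdr. Plvap (0.81) and Npr3 (0.64) were higher there. Its 9 epicardial markers summed to 19616, against 5294 and 5569 in the other NAC MI libraries, and the part of this in the result was not tested. Without NAC MI 2 the median difference between NAC and saline after MI was -0.05. Without NAC sham 2 that after sham was -0.62, and without NAC sham 3 it was -0.15.

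Leaving out saline sham 3, NAC sham 2 and NAC MI 2 together raised the number of calls in 4 comparisons, while the medians became -0.47 for MI after saline, -0.66 for NAC after sham and -0.34 for NAC averaged over surgeries. For MI after saline 12 members passed in limma, where 12% of all genes passed: Cdh5, Esam, Podxl, Robo4, Kdr, Flt1, Ets1, Aqp1, Apln, Dll4 and Notch1 as lower and Plvap as higher. For NAC against saline after sham 11 passed, where 2.79% of all genes passed: Esam, Icam2, Clec14a, Robo4, Flt1, Sox17, Gpihbp1, Apln, Dll4 and Notch1 as lower and Prox1 as higher. There were 8 for MI averaged over treatments (14.6% of all genes) and 6 for NAC averaged over surgeries (2.19% of all genes). Groups lay apart, with the first lower, in 28 members for MI after saline (22.3% of all genes), 31 for NAC after sham (23.5%) and 6 for NAC after MI (16.1%). With libraries weighted by quality in limma, 20 members passed for MI averaged over treatments (27.9% of all genes) and 17 for NAC averaged over surgeries (13.5%). These fits keep 2 libraries in 3 of the groups or give little weight to the 3 libraries and to NAC MI 3. The 3 libraries were picked by values of these same data. All groups share 1 estimate of spread, so leaving out a library also changes the spread used for other groups. For MI after saline, leaving out saline sham 3 alone gave 0 members, where 0.7% of all genes passed.

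Within title prefixes the NAC difference was not uniform. In the prefix with NAC sham 2 and saline sham 1 and 2, the median difference was 0.11 with 28 of 40 higher. NAC sham 1 and 3, which carry no prefix, differed from those saline libraries by a median of -0.66, with 34 of 40 lower. Among MI libraries the median was 0.00 in the prefix with NAC MI 3 and saline MI 1 and 2, and -0.54 in the prefix with NAC MI 1 and 2 and saline MI 3. In the latter, NAC MI 1 differed from saline MI 3 by a median of -0.11 and NAC MI 2 by -1.01. Each of these values rests on 1 or 2 libraries a side, and none was tested.

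The difference between the MI effect after NAC and after saline was not detectable. The interaction had a median of -0.06 over the members, with 16 higher and 24 lower. limma called 0 members and 0% of all genes, and 0 members had an unadjusted p under 0.05, against 2.03% of all genes. edgeR and DESeq2 also called 0 members, where they called 0% and 0.00669% of all genes. The smallest p-values belonged to Gja4 (0.65, SE 0.42) and Emcn (0.48) among positive interactions and to Ephb4 (-0.25) and Aplnr (-0.40) among negative ones, each with a limma adjusted p of 0.9999. Without the 3 libraries named above the median was 0.59, and without NAC MI 2 alone it was 0.28.

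Members moved together across libraries within groups. After removal of group means, the median Pearson r over 780 pairs of members was 0.61 across the 12 libraries, and 70.9% of pairs were positive. With the mean of the other reference genes, 15 members had r above 0.9, led by Tie1 (0.976), Sox17 (0.971) and Cdh5 (0.966), against 1.53% of 14956 other genes. Prox1 (-0.68), Npr3 (-0.59) and Plvap (-0.55) had the most negative r of 7 members below 0. The likeness rests largely on NAC sham 2 and NAC MI 2. Over the other 10 libraries the median r was 0.19, 64.2% of pairs were positive and 0 members exceeded 0.9, with Tie1 at 0.842, Sox17 at 0.745 and Cdh5 at 0.712. The highest there were Fabp4 (0.879), Aplnr (0.869), Icam2 (0.861) and Mmrn2 (0.860), all above Tie1. The lowest of 8 members below 0 there were Nr2f2 (-0.77), Npr3 (-0.76), Vwf (-0.67) and Notch1 (-0.46). Plvap was at -0.18 and Prox1 at 0.07, so the negative end also changed without NAC sham 2 and NAC MI 2. These libraries differ in composition and depth, so the values are a description. Protein-coding genes outside the set most like the reference included Pimreg (r = 0.988), Elk3 (0.987), Pea15a (0.976), Gimap6 (0.974), Tnfaip8l1 (0.972), Rflnb (0.971), Ehd2 (0.970), Coro1b (0.969) and Tmem204 (0.969) over 12 libraries. Over the 10 libraries Pimreg had 0.917 and Elk3, an ETS factor, 0.908.

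The members were also set against the 12 reference genes within each library. The reference genes are themselves members, so this centres the set near 0, and only how single members differ from the others can be read. On this scale a value is the log2 value minus the mean log2 of the reference genes, so a rise relative to the reference can also be a reference that is lower. The median of all genes shifted to 0.54 for MI averaged over treatments and 10.1% of all genes passed in limma, nearly all as higher. Plvap was the 1 member that passed, at 1.12 (SE 0.32, limma adjusted p = 0.0326), and Vwf followed at 0.86 (adjusted p = 0.0564). The relative log2 values of Plvap were -1.70, -1.43 and -1.29 in saline sham, -0.27, -0.57 and -0.10 in saline MI, -1.06, -1.68 and -0.52 in NAC sham and -0.23, 1.18 and -0.95 in NAC MI. Saline MI lay wholly above saline sham, and after NAC only NAC MI 3 lay within the range of NAC sham. The call for Plvap was lost in most fits without 1 library, as given in the closing section. On the lower side Dll4 was at -0.53 (SE 0.23, adjusted p = 0.111) and Apln at -0.69 (adjusted p = 0.13), and did not pass. For NAC averaged over surgeries limma called 0 members and 0% of all genes on this scale. At an unadjusted p under 0.05 there were 3 members, against 26.2% of all genes. The smallest adjusted p-values were 0.14 for both Prox1 (1.05) and Npr3 (1.03), and on the lower side 0.204 for Gpihbp1 and 0.371 for Cldn5. edgeR called 1 member on this scale for MI averaged over treatments, again Plvap, and 0 for NAC. The share of all genes that edgeR called on this scale is not given here, so its counts cannot be read against a background.

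**Figure D4:**
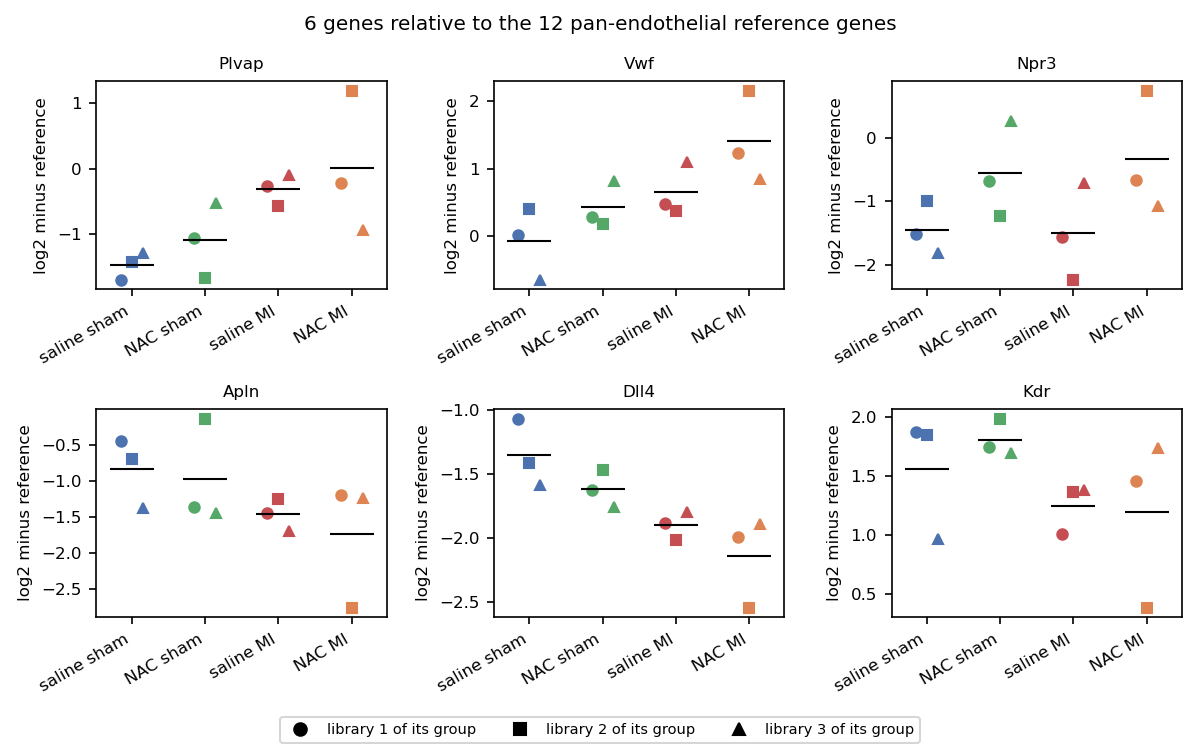
Log2 value of 6 members minus the mean log2 value of the 12 reference genes of the same library, by group. Marker shapes are libraries 1 to 3 and lines are group means. Plvap and Vwf have higher means and Apln, Dll4 and Kdr lower means in the MI groups, with NAC MI 2 at the end of the range in each.

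Other genes of the same pathways, from separate lists, included some that passed for MI averaged over treatments in limma. Of 11 other Notch genes, 3 fell and 0 rose. Nrarp, a feedback inhibitor induced by Notch, fell by 1.04 on the log2 scale (SE 0.25, adjusted p = 0.0441), with values of 253, 217 and 327 in saline sham, 145, 140.4 and 113 in saline MI, 153, 323 and 135 in NAC sham and 133, 64.4 and 79.2 in NAC MI. Jag2, a Notch ligand, fell by 0.80 (adjusted p = 0.0432), and Notch3, the receptor of mural cells, by 0.77 (adjusted p = 0.0247). Of 23 other endothelial genes tested, 3 fell: Sox7, the remaining SOXF factor, by 0.83 (SE 0.17, adjusted p = 0.0198), Nos3, the endothelial nitric oxide synthase, by 0.69 (adjusted p = 0.0263), and Sox13 by 0.61 (adjusted p = 0.0266). Sox7 had 1935, 1941 and 2075 in saline sham, 1187, 1163 and 1220.1 in saline MI, 1687, 2059 and 1473 in NAC sham and 1008, 597 and 1266 in NAC MI, so that all 6 MI libraries lay below all 6 sham libraries. The median of the 23 was -0.54 with 18 lower, close to that of the members.

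Of 11 genes of endothelial activation tested, 3 rose and 0 fell. Selp, which encodes P-selectin and catches leukocytes on the vessel wall, had 9.42, 27.8 and 4.76 in saline sham, 56.1, 74.3 and 41.9 in saline MI, 7.02, 14.01 and 17.8 in NAC sham and 65.7, 74.5 and 65.6 in NAC MI, and rose by 2.32 (SE 0.40, adjusted p = 0.00867). P-selectin is also made by platelets. Vcam1, an adhesion molecule for leukocytes, rose by 0.75 (adjusted p = 0.0284), and the cytokine gene Il6 rose by 2.23 (adjusted p = 0.0342) at low values of 31.2 ± 17.0 in saline MI against 7.71 ± 2.96 in saline sham (SD, n = 3). Vcam1 was highest in NAC MI 2 (1179), the library with the lowest endothelial reference. Which cells held the Selp, Vcam1 and Il6 transcripts was not tested. Of 13 VEGF and angiopoietin ligands and co-receptors, Vegfd, a ligand of the lymphatic VEGF receptor, rose by 1.07 (SE 0.24, adjusted p = 0.0332) and 0 fell. Of these 10 pathway genes only Selp kept its call in each of 12 fits without 1 library. The others lost it in 3 to 8 of the 12, and Vegfd, Jag2, Nrarp and Il6 also lost it without the filter on low values. No gene of these 4 lists passed in any of the other 6 comparisons.

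Markers of other cells moved with surgery beside the endothelial genes. In MI averaged over treatments 7 of 9 neutrophil markers rose, with Mmp9 up by 3.99, as did 2 of 15 macrophage and monocyte markers (Cd14 and Ccr2) and 5 of 9 epicardial markers, with Krt8 up by 3.97. The macrophage sum ranged from 853 to 1411 in saline sham, 9816 to 14485 in saline MI, 1375 to 22622 in NAC sham and 1133 to 12717 in NAC MI. Mural cell markers included 3 that fell (Rgs5, Vtn and Notch3) and 1 that rose (Cnn1), of 10 tested. Notch3 is the same call as that counted among the other Notch genes above. The 12 fibroblast markers all had higher means after MI (median 0.46) and the 15 cardiomyocyte markers a median of 0.18, with 0 passing in either list. With NAC all 7 red cell markers had lower means (median -1.11 averaged over surgeries, 0 passing), beside the lower endothelial means. Lymphocyte and platelet markers likewise had 7 of 7 lower with NAC, with 0 passing. Markers at 0 in some library included Tagln of the mural list, Cxcr2 and Ly6g of the neutrophil list, and Cd3e and Gp9 of the last list. The part of these cells in the endothelial values was not tested.

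**Figure D5:**
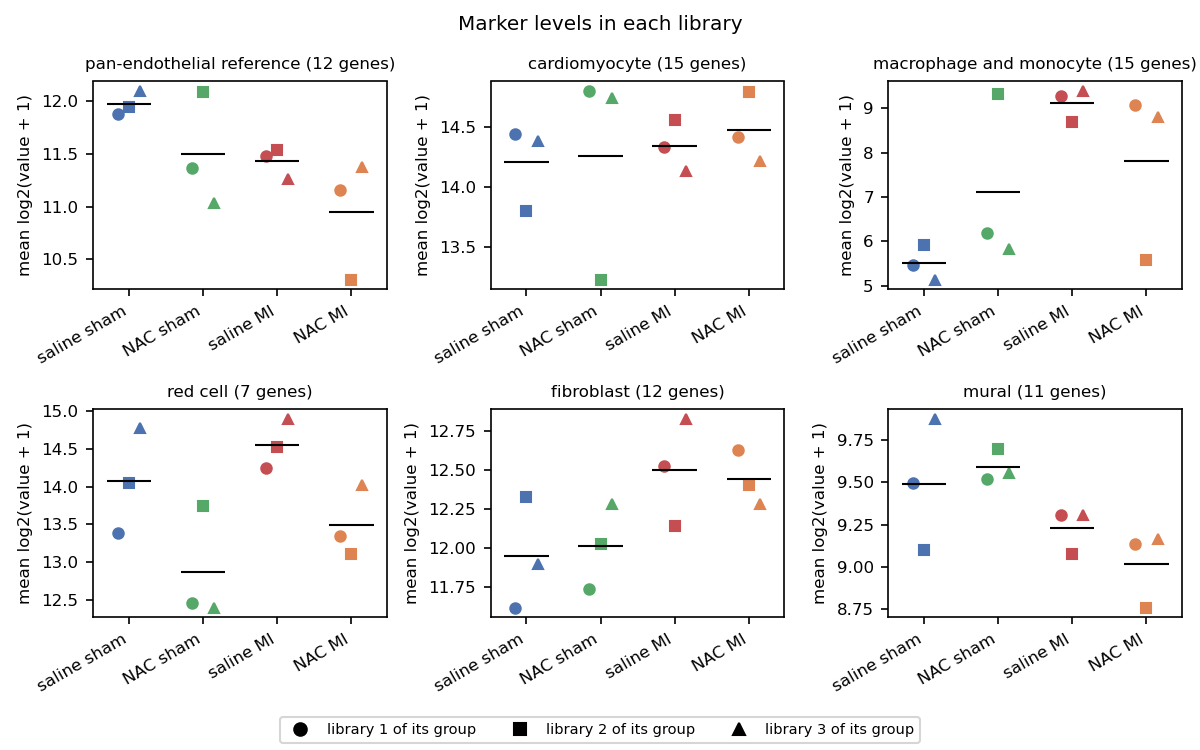
Mean log2(value + 1) of marker lists in each library, by group, with marker shapes for libraries 1 to 3 and lines for group means. The endothelial reference is highest in saline sham and NAC sham 2 and lowest in NAC MI 2, and NAC sham 2 and NAC MI 2 also leave their groups on the macrophage list.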

How the data were processed

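The authors sequenced poly(A) RNA, with mm10 as the build and STAR 2.7.10a and DESeq2 1.44.0 among the tools listed, per the submitters' processing notes. The read counter, annotation release and strand setting are not given in the sources used here. The deposited values are a normalized signal per gene, not raw counts. In each library they are whole numbers of reads divided by 1 size factor, so that 100% of values gave whole reads to within 0.01. The recovered reads served only edgeR and DESeq2. Of 52336 gene identifiers, 52079 matched GENCODE vM21 (GRCm38), and 21590 genes were at 0 in all libraries.

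For the results, limma 3.58.1 in R 4.3.3 was fitted with a trended prior on log2(value + 1) to genes with a mean of at least 10, with 4 group means over 12 libraries (8 residual degrees of freedom), and p-values were adjusted by Benjamini-Hochberg over all 14996 genes. A call is an adjusted p under 0.05, two-sided. A fold change on this scale understates that of low genes. edgeR 4.0.16 (quasi-likelihood) and DESeq2 1.42.0 were alternatives. The same function was tested on simulated data for MI against sham averaged over treatments with 14996 genes, where it recovered 52% of genes changed 2-fold and 83% of those changed 4-fold; for MI after saline it recovered 13% and 72%.

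The members, roles and lists were chosen with earlier results of these data known, so they give no independent support. All 40 members are named. Those that passed get full statistics, and where fewer than 4 passed, the 2 smallest p-values in each direction are added. Of the other lists those that passed are named, up to 4 a list. Genes singled out beyond this rule were chosen after their values were seen. A few genes that the rule or lists hold are not reported here. Columns of other samples numbered 0. Promoters are from RefSeq. A level per kb divides by the joint length of all annotated exons of the gene.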

Additional observations from a re-analysis of the deposited data

How the results depend on the processing

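Pseudocounts of 5 and 0.5, no filter on low values, TMM factors and edgeR left the number of members called in each of the 7 comparisons at 0 on the deposited scale. Fits differed as follows. DESeq2 called 11 members for MI averaged over treatments and 1 for NAC averaged over surgeries. On the scale relative to the reference it called 2 and 2 members, and 19.8% and 14% of all genes. The reference genes are members, which centres the members near 0 on that scale. A smaller share of members than of all genes is therefore built in there. Library quality weights gave 10 for MI after saline (19.4% of all genes), 1 for MI after NAC (5.37%), 5 for NAC after sham (2.81%), 1 for NAC after MI (4.57%), 20 for MI averaged and 17 for NAC averaged, with an interaction median of 0.31. Quality weights could not be fitted on the relative scale and were not run there. Without saline sham 3, NAC sham 2 and NAC MI 2 the counts were 12 for MI after saline, 11 for NAC after sham, 8 for MI averaged and 6 for NAC averaged. Relative to the reference the counts were 5, 5 and 3 for MI after saline, NAC after sham and NAC averaged. In those fits 26.5%, 33.7% and 27.4% of all genes were called, with the same limit of that scale. The medians in that fit were -0.018 for MI after NAC, -0.0519 for NAC after MI and 0.59 for the interaction. With only the libraries of the comparison, 2 members passed for MI after saline (Apln and Dll4, with 3.38% of all genes) and 1 relative to the reference (Plvap, with 18.7% of all genes). The title prefix as a block among MI libraries gave a median of -0.29 for NAC after MI with 0 members called.

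Leaving out 1 library at a time gave 0 to 5 members for MI averaged and 0 to 3 for NAC averaged. For MI averaged there were 5 without saline sham 3 (10.4% of all genes), 2 without NAC MI 3, and 1 each without NAC sham 3 and NAC MI 2. For NAC averaged there were 3 without NAC sham 2. Relative to the reference it gave 0 to 2 for MI averaged, 0 to 4 for NAC averaged (4 without NAC sham 2, where 29.6% of all genes were called) and 0 to 1 for NAC after sham. Counts given here without a share of all genes cannot be read as a result about the members. The Plvap call relative to the reference was lost without any of saline sham 1, saline sham 2, NAC sham 1, NAC sham 2, saline MI 1, saline MI 3, NAC MI 1 or NAC MI 2. Medians ranged from -0.58 to -0.0519 for NAC after MI and from -0.17 to 0.28 for the interaction, both ends on the higher side without NAC MI 2. They ranged from -0.73 (without NAC MI 3) to -0.22 (without NAC MI 2) for MI after NAC, from -0.62 (without NAC sham 2) to -0.15 (without NAC sham 3) for NAC after sham, and from -0.498 (without NAC sham 2) to -0.21 (without NAC MI 2) for NAC averaged. Directions reversed for Apln relative to the reference in MI after NAC (0.18), and in the interaction for Ephb4 (0.16), Aplnr (0.0153) and, relative to the reference, Gja4 (-0.44), all without the 3 libraries, and for Aplnr in the interaction without NAC MI 2 (-0.85 to 0.30 over the fits without 1 library). The cause was not tested. The numbers of members lying apart and lower without the 3 libraries, an alternative chosen after seeing the data, were 28, 8, 31 and 6, against 27, 5, 3 and 5. No paired analysis was possible because the labels give no replicate numbers shared between groups; the block on title prefix above groups libraries by prefix and does not pair them. Depth limits only Ackr1, with 5 to 28 reads a library.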

Other observations

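The genes whose values went opposite to the endothelial reference within groups were named after their values were seen. Over 12 libraries the most opposite protein-coding genes were Cers4 (r = -0.98), a ceramide synthase, Slc12a7 (-0.97), a potassium chloride cotransporter, and Col4a5 (-0.97), a basement membrane collagen chain. The cell adhesion genes Ncam1 (-0.96), Cdh2 (-0.96), which encodes N-cadherin of cardiomyocyte junctions, and Cxadr (-0.96), the coxsackie and adenovirus receptor of the intercalated disc, were also among the 10 most opposite. These values are a description over libraries that differ in composition.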
